A study of Mus musculus with 6 samples.

Results

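Many proteins of mitosis are made by dividing cells in late S phase and G2 and destroyed as the cells leave mitosis. The genes described here are 50 genes of mitosis and chromosome segregation, taken as a fixed list of symbols and found through the array's own gene annotation. Of the 50 genes, 48 had at least 1 probe with that symbol alone, 97 probes in all among the 45281 on the array, and 30 gave a signal above background that could be compared. Macrophages grown from the bone marrow of wild-type c57Bl6/J mice, described as 10-week-old males, were studied as primary cells. The cells were cultured for 12 h with a peptide at 5 µM, either a control peptide or RI-BPI, a retro-inverso peptide that blocks the surface of the repressor BCL6 where the corepressors SMRT and NCoR bind. Total RNA of each group was measured on 3 Illumina bead arrays, 6 in all. The labels call the 3 arrays of a group technical replicates. Every limma p-value here therefore rests on the spread between arrays of a group, shared over genes, and not on that between mice or cultures. How many animals or cultures gave the RNA was not given in the sources used here.

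As background, entry into mitosis is driven by the kinase CDK1 with its cyclins, and the Polo and Aurora kinases then build the spindle. The spindle assembly checkpoint holds the anaphase-promoting complex (APC/C), a ubiquitin ligase, in check until every kinetochore is attached, after which separase cuts cohesin and the sister chromatids part. Many of these genes share a promoter layout in which the DREAM complex, or B-MYB and FOXM1, act through a cell cycle genes homology region (CHR) with CCAAT boxes bound by NF-Y upstream. Bone marrow-derived macrophages divide in culture under macrophage colony-stimulating factor, and most mature tissue macrophages at rest do so little.

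The promoters below show that layout for measured genes that held both motifs close to the start. They are the 4 with the largest fitted decreases and the 1 that rose. Kif11 was placed among the 4 by its fitted value, although it was undetected with RI-BPI and has only a bound. Each runs 5′ to 3′ along the gene's own strand from 100 bases before the transcription start to 30 bases from it, in the RefSeq mouse annotation of build GRCm38.p6. Capitals mark TTTGAA, the CHR letters, and CCAAT, each searched on both strands, so that TTCAAA and ATTGG are the same motifs read from the other strand. The Top2a stretch lies at chr11:99024160-99024289 on the minus strand, that of Cdk1 at chr10:69352883-69353012 on the minus strand, that of Kif11 at chr19:37376282-37376411 on the plus strand, that of Cenpa at chr5:30666786-30666915 on the plus strand and that of Bub3 at chr7:131560270-131560399 on the plus strand.
Top2a: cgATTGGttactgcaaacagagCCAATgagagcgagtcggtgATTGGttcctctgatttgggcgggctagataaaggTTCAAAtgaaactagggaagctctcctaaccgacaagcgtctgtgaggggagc
Cdk1: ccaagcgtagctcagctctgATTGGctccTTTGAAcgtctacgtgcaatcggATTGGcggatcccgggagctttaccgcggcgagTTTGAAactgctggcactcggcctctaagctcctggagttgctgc
Kif11: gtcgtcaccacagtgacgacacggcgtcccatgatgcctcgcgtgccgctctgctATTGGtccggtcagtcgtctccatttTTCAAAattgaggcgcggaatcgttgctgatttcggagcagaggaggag
Cenpa: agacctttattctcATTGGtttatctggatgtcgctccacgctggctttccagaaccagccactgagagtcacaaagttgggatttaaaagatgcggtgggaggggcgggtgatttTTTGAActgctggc
Bub3: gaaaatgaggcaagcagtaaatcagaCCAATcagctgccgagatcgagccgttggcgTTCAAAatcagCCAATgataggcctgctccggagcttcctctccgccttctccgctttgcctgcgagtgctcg
The leftmost base of the CHR letters stood at position -23 from the start in Top2a, at -71 and -15 in Cdk1, at -19 in Kif11, at 17 in Cenpa and at -43 in Bub3. The 130 bases held 3 CCAAT letters in Top2a, 2 in Cdk1 and in Bub3, and 1 in Kif11 and in Cenpa. Bub3, which rose, was chosen for holding both motifs, as were the 4 genes that fell, so that they share the pair is no result. A match of letters is a description of the sequence and does not show that a factor binds there.

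The signal of each probe was the mean intensity of its beads after removal of outlying beads, with the median over all probes between 45.8 and 47.4 on the 6 arrays. A probe was called detected where its deposited detection p-value, which sets it against the negative control beads, was under 0.01, and it was kept where it was detected on at least 3 of the 6 arrays. Changes were computed on log2 values after background correction (normexp with an offset of 16) and quantile normalization, for the brightest kept probe of each gene, and tested with limma over all 8205 genes measured. Limma draws each gene's variance toward a value shared over all genes, and the SEs and p-values of changes given here rest on that moderated variance. A gene was called higher or lower where the Benjamini-Hochberg adjusted p was under 0.05. Between 13866 and 14357 probes were detected on the control arrays and between 12931 and 13843 on the RI-BPI arrays. Pearson's r over the 8205 genes, on the normalized log2 value of the probe used for each, lay between 0.992 and 0.996 for arrays of the same peptide. For arrays of different peptides it lay between 0.945 and 0.948, and genes are not independent replicates. For the 30 measured mitosis genes the median coefficient of variation between arrays was 5.56% with control peptide and 6.0% with RI-BPI. The median standard error of a probe's bead mean, as a share of its signal, was of about that size, 6.1% and 5.65%.

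Of the 30 measured mitosis genes, 26 fell with RI-BPI, 1 rose and 3 did not pass the test. Over all 8205 genes tested, 30.6% were called lower and 30.7% higher, 61.3% in either direction. The median log2 change of the 30 was -1.13, with quartiles of -1.30 and -0.50, against a median of 0.008 and quartiles of -0.37 and 0.36 over all genes tested. By size, and apart from 3 genes that were undetected with RI-BPI and have only a bound, 16 were lower by at least 2-fold, 3 by 1.5 to 2-fold and 4 by less. Of all genes, on fitted values that include undetected probes, 5.3% were lower by at least 2-fold, 15.2% were lower by at least 1.5-fold and 14.8% higher by at least 1.5-fold. The arrays of the groups did not overlap for 27 of the 30, which held for 64.9% of all genes. Set against the mean of the control arrays, the median of the 30 genes stood at -0.03, 0.02 and 0.02 on control arrays 1, 2 and 3, and at -1.10, -1.11 and -1.03 on RI-BPI arrays 1, 2 and 3. No RI-BPI array stood apart from the others in this value. In whole cultures, fewer cells in mitosis and less of these transcripts per cell cannot be told apart.

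**Figure D1:**
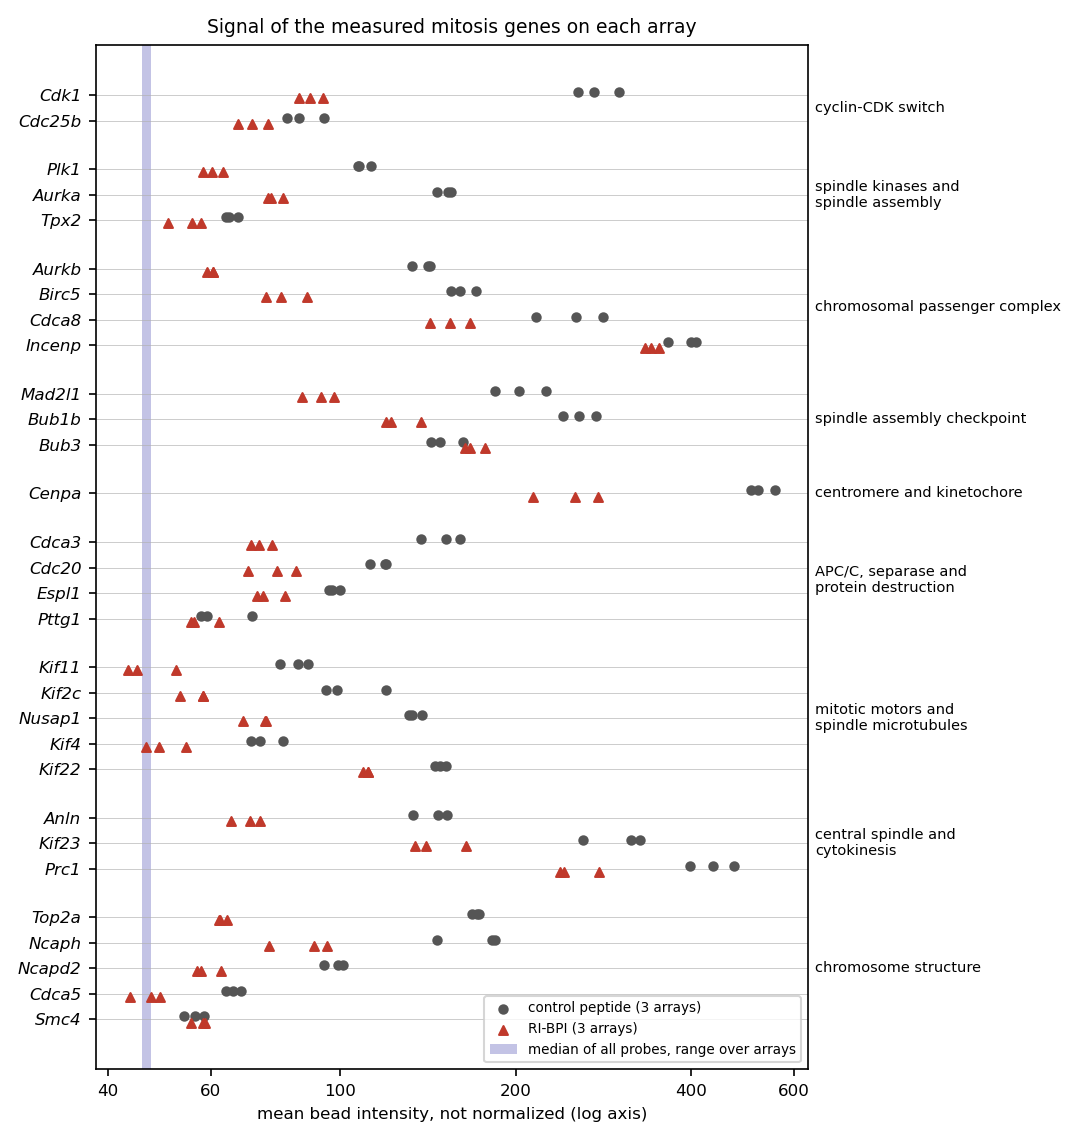
Mean bead intensity of the 30 measured mitosis genes on each array, not normalized, on a log axis, grouped by role, with 1 mark for each of the 3 control peptide (circles) and 3 RI-BPI (triangles) arrays. Most triangles lie to the left of the circles of the same gene, those of Bub3 lie just to the right, and for Kif11, Kif4 and Cdca5 they reach the band of the median of all probes.

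The filter bears on these counts. All 30 genes were detected on 3 of 3 control arrays, while with RI-BPI 22 were detected on 3 of 3 arrays, 5 on 2 of 3 (Tpx2, Pttg1, Kif2c, Smc4 and Ncapd2) and 3 on none (Kif11, Kif4 and Cdca5). A gene kept through its control arrays alone had to be lower with RI-BPI, so its call adds nothing to the count. Of the 22 detected on all 6 arrays, 20 fell and 1 rose, where 29.9% of the 7253 genes detected on all 6 arrays were called lower and 32.6% higher. On control arrays 1, 2 and 3, 30 of the genes were detected each time, and on the RI-BPI arrays 27, 22 and 27.

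Among the genes that switch cells into mitosis, Cdk1, the kinase itself, was measured at 272, 300.2 and 256 on the control arrays and at 93.6, 88.7 and 84.9 on the RI-BPI arrays. The lowest control array stood far above the highest RI-BPI array, and the log2 change was -1.92 ± 0.10 (SE, n = 3 arrays per group, limma adjusted p = 1.13e-11), 3.78-fold lower. Cdc25b, a phosphatase that activates CDK1, gave 81.1, 85.1 and 93.7 with control peptide and 75.4, 70.6 and 66.8 with RI-BPI. The groups did not overlap but lay close, with a log2 change of -0.32 ± 0.12 (limma adjusted p = 0.025). That call was lost in 6 of the alternative settings, with adjusted p between 0.0601 and 0.071 for the 5 of them that were nearest and 0.169 without control array 3. The cyclins Ccna2 and Ccnb2, the phosphatase Cdc25c and the CDK-binding subunits Cks1b and Cks2 were detected on no array. Ccnb1, the main mitotic cyclin, had no probe that carried its symbol alone and was not analysed here.

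Among the kinases and factors that build the spindle, Plk1, the Polo kinase of centrosome maturation and mitotic entry, went from 107, 113 and 108 to 60.4, 58.2 and 62.9. This was a log2 change of -1.22 ± 0.11 (limma adjusted p = 1.14e-08). Aurka, the Aurora kinase of the spindle poles, went from 147, 155 and 153 to 75.4, 76.1 and 80.0, a log2 change of -1.21 ± 0.11 (limma adjusted p = 1.62e-08). For both genes the groups lay in well separated ranges. Tpx2, which activates Aurora A on spindle microtubules, was nearer to background, with 63.9, 66.9 and 64.5 on the control arrays and 55.8, 50.6 and 57.8 on the RI-BPI arrays, of which 2 were detected. It fell by 0.41 ± 0.12 on the log2 scale (limma adjusted p = 0.00451). The centrosomal kinase Nek2 and the spindle protein Hmmr were detected on no array.

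The chromosomal passenger complex, which corrects wrong attachments at the centromere and later directs cytokinesis, was measured in all 4 of its subunits. Aurkb, its kinase, went from 141, 143 and 133 to 60.6, 60.7 and 59.2. The groups were widely separated, with a log2 change of -1.70 ± 0.10 (limma adjusted p = 4.74e-11), 3.25-fold lower. Birc5, the survivin subunit that brings the complex to the centromere, went from 161, 171 and 155 to 79.2, 74.7 and 87.7, a log2 change of -1.24 ± 0.12 (limma adjusted p = 3.23e-08). Its other kept probes gave -1.58 and -1.57. Cdca8, the borealin subunit, was lower by 1.65-fold, with a log2 change of -0.72 ± 0.11. Incenp, the scaffold that binds the kinase, did not pass the test: its intensities were 366, 407 and 399 with control peptide and 352, 333 and 342 with RI-BPI. On the intensity scale the groups stood just apart, after normalization they overlapped, and the log2 change was -0.16 ± 0.11 (limma adjusted p = 0.215). Whether the kinase and its scaffold differed in their change was not tested.

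The spindle assembly checkpoint held the only gene of the list that was called higher. Mad2l1, which makes the MAD2 protein of the inhibitory checkpoint complex, went from 184, 225 and 203 to 92.8, 97.4 and 86.1. Its log2 change was -1.35 ± 0.12 (limma adjusted p = 7.36e-09), and a dimmer probe of the gene gave -0.64. Bub1b, which makes the BUBR1 protein of the same complex, went from 241, 274 and 256 to 138, 122 and 119.8, a log2 change of -1.13 ± 0.11 (limma adjusted p = 3.3e-08). A dimmer Bub1b probe was not detected on the RI-BPI arrays and was at least 1.23-fold lower. Bub3, the partner that brings BUB1 and BUBR1 to kinetochores, went the other way, with 163, 148 and 143 on the control arrays and 177, 167 and 164 on the RI-BPI arrays. The lowest RI-BPI array lay just above the highest control array, and the log2 change was 0.31 ± 0.11 (limma adjusted p = 0.0158). The call was lost with each array centred on its median (0.19, adjusted p = 0.166) and without control array 2 (0.27, adjusted p = 0.0725). The checkpoint kinases Bub1 and Ttk were detected on no array.

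At the centromere, Cenpa, the histone H3 variant that marks where the kinetochore forms, went from 558, 520.4 and 507 to 215, 253 and 277. Every control array stood far above every RI-BPI array, although the RI-BPI arrays were spread more widely, and the log2 change was -1.14 ± 0.13 (limma adjusted p = 3.79e-07). The kinetochore motor Cenpe and the kinetochore proteins Cenpf and Cenph were detected on no array.

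Of the genes for the destruction of mitotic proteins, Cdca3, a part of the ubiquitin ligase that removes the CDK1 inhibitor WEE1, went from 152, 161 and 138 to 72.5, 76.5 and 70.3. The log2 change was -1.32 ± 0.11 (limma adjusted p = 3.91e-09). Cdc20, the activator that hands substrates to the APC/C, went from 119, 119.6 and 112 to 78.0, 84.1 and 69.5, a log2 change of -0.74 ± 0.12 (limma adjusted p = 1.9e-05). Its other kept probes gave -0.47 and -0.83, all lower but by different amounts. Espl1, separase, was lower by 1.34-fold, with a log2 change of -0.42 ± 0.10 (limma adjusted p = 0.00177). Pttg1, securin, the inhibitor that holds separase, gave 59.2, 70.8 and 57.7 with control peptide and 56.1, 55.4 and 61.9 with RI-BPI. Its groups overlapped near the background, and a log2 change of -0.13 ± 0.13 did not pass the test (limma adjusted p = 0.411). Ube2c, the ubiquitin-conjugating enzyme of the APC/C, was detected on no array.

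Of the 5 mitotic motors and spindle microtubule genes, 2 were detected on all 6 arrays (Nusap1 and Kif22) and both fell, against 29.9% of all genes so detected. Kif2c was detected on 2 of 3 RI-BPI arrays, and Kif11 and Kif4 on none, so that the filter fixed the direction of the latter pair. Kif11, the kinesin that pushes the spindle poles apart, gave 88.2, 84.6 and 79.0 with control peptide and 52.4, 43.4 and 44.8 with RI-BPI, where it was not detected. Set against the lowest detected signal, it was at least 1.83-fold lower. For this bound, used for each gene undetected in a group, an array's value was raised to that of the dimmest detected probe wherever it lay under it. Kif2c, the microtubule-depolymerizing kinesin MCAK, went from 94.5, 119.7 and 98.6 to 58.2, 53.1 and 58.1, a log2 change of -1.33 ± 0.13 (limma adjusted p = 2.74e-08). Nusap1, which bundles spindle microtubules, was lower by 2.20-fold and Kif4, a chromosome-bound kinesin, was not detected with RI-BPI and at least 1.52-fold lower. A dimmer Kif4 probe, also undetected with RI-BPI, was at least 1.08-fold lower. Kif22, another chromosome-bound kinesin, changed least in the group, from 152, 145 and 149 to 112, 109.5 and 111.5. The arrays were tight and apart, with a log2 change of -0.41 ± 0.11 (limma adjusted p = 0.00245).

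The 3 measured genes of the central spindle and cytokinesis were detected on all 6 arrays and fell, where 30.6% of all genes tested were called lower. Anln, the anillin that scaffolds the contractile ring, went from 152, 134 and 147 to 64.9, 70.0 and 72.9, a log2 change of -1.38 ± 0.12 (limma adjusted p = 1.16e-08). Kif23, the motor of centralspindlin, went from 326, 315 and 261 to 140.4, 164 and 135, a log2 change of -1.12 ± 0.12 (limma adjusted p = 1.26e-07). The second Kif23 probe designed on the RefSeq transcript gave -0.88, while a probe designed on another cDNA record under the same symbol was higher by 0.29 (adjusted p = 0.029 over all kept probes). Those probes therefore disagreed in sign. Prc1, which cross-links the microtubules of the midzone, went from 435, 398 and 473 to 243, 278 and 238. The log2 change was -0.79 ± 0.12 (limma adjusted p = 1.43e-05). Kif20a, a motor of the same midzone, and Ect2 and Racgap1, which switch on RhoA for cytokinesis, were detected on no array.

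Among the genes of chromosome structure, Top2a, the topoisomerase that untangles sister chromatids, fell furthest of the whole list, from 168, 173 and 171 to 63.9, 61.9 and 62.2. The replicate arrays were within a few units of each other, with a log2 change of -1.95 ± 0.10 (limma adjusted p = 7.4e-12), 3.87-fold lower. Ncaph, a subunit of condensin I, went from 185, 182 and 147 to 90.3, 94.8 and 75.5, a log2 change of -1.17 ± 0.13 (limma adjusted p = 1.77e-07). Ncapd2, another condensin I subunit, was 2.12-fold lower, and Cdca5, sororin, which protects cohesin until anaphase, was not detected with RI-BPI and at least 1.24-fold lower. Smc4, an ATPase shared by both condensins, gave 54.1, 58.4 and 56.4 with control peptide and 58.3, 55.5 and 58.6 with RI-BPI. These overlapped close to background, and the log2 change of 0.11 ± 0.11 did not pass the test (limma adjusted p = 0.396). The partner ATPase Smc2 and the condensin subunit Ncapg were detected on no array, and Mki67, the Ki-67 gene, had no probe with that symbol alone.

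**Figure D2:**
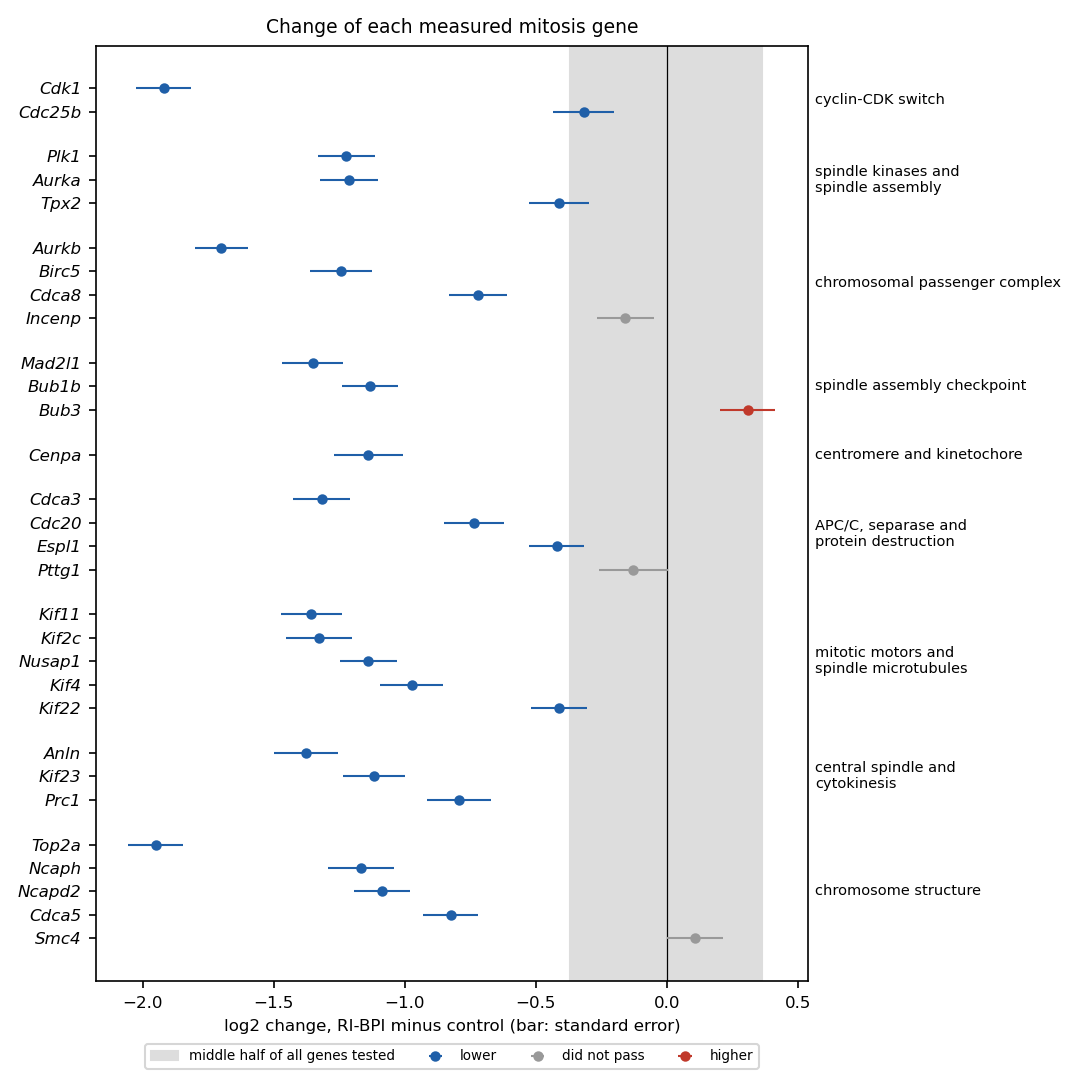
Log2 change (RI-BPI minus control peptide) of the 30 measured mitosis genes, with a bar of 1 moderated standard error on each side, coloured by call, and with the range between the quartiles of all genes tested in grey. Top2a at -1.95 and Cdk1 at -1.92 lie furthest to the left, and Bub3 at 0.31 is the only gene called higher.

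The 18 genes detected on no array had 32 probes, with intensities between 35.8 and 54.1, around the median of all probes. No change can be read for them in either direction. Of the 30 measured genes, 21 rested on a single kept probe, Top2a and Cdk1 among them. The other 9 genes had 12 further kept probes, of which 11 were called lower and 1, the Kif23 probe above, higher. Another 23 probes of measured genes did not pass the filter, and 22 of these were detected on no array.

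The sizes moved with the background setting. Without background correction the median log2 change of the 30 genes was -0.79, and with an offset of 50 it was -0.72, so the fold changes given here hold for the stated correction. Under those settings the log2 change of Top2a was -1.37 and -1.30, and that of Cdk1 -1.55 and -1.49.

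The other mitosis genes, a list of 100 that shares no member with the first, changed in both directions. Of 63 measured, 37 were lower, 12 higher and 14 not called, with a median log2 change of -0.37. Refitted on genes detected on all 6 arrays, 17 of 38 were lower and 10 higher, beside 29.9% lower and 32.6% higher over all genes so detected. Of the 37 lower calls, 12 were of genes undetected with RI-BPI, whose direction the filter fixed. Left without control array 1, 2 or 3, the list gave 22, 24 and 23 lower calls, because genes detected on control arrays alone no longer passed the filter, and with the genes held fixed it gave 34, 36 and 35. Pbk, a mitotic kinase, had the largest fitted decrease, from 137, 155 and 129 to 60.3, 50.2 and 52.7, a log2 change of -2.04 ± 0.13 (limma adjusted p = 8.09e-11), and was detected on 1 of 3 RI-BPI arrays. Gtse1, a spindle protein, had a log2 change of -1.16 ± 0.11. Troap, another spindle protein, was undetected with RI-BPI and at least 1.70-fold lower, a bound that gives it no rank.

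Among the 12 genes of this second list that rose, the 3 largest increases were in Mad2l1bp, Anapc7 and Fzr1. Mad2l1bp, which makes p31comet and takes MAD2 out of its active form, went from 573, 553 and 534 to 1126, 1198 and 1138. The groups were far apart, with a log2 change of 1.12 ± 0.11 (limma adjusted p = 3.01e-08), in the direction opposite to Mad2l1. Anapc7, an APC/C subunit, went from 237, 233 and 231 to 399, 486 and 359, a log2 change of 0.97 ± 0.12 (limma adjusted p = 1.07e-06). Fzr1, the CDH1 activator that serves the APC/C after mitosis and in G1, went from 868, 792 and 941 to 1545, 1496 and 1598, a log2 change of 0.88 ± 0.12 (limma adjusted p = 3.02e-06), whereas Cdc20, its mitotic counterpart, was lower.

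By role, 19 of 24 other kinetochore genes were lower and 1 higher, but 5 of the 19 were undetected with RI-BPI, and of the 12 detected on all 6 arrays 8 were lower and 1 higher. Of 17 other motor, spindle and centrosome genes 13 were lower and 2 higher, with 6 of the 13 undetected with RI-BPI, and of the 6 detected on all 6 arrays 4 were lower, by the calls of the fit over all genes. The remaining APC/C genes, 9 in number, gave 3 lower and 2 higher calls. Cohesin, which holds sister chromatids together and also organizes chromosome loops in cells that do not divide, gave 1 lower and 5 higher calls in 10 genes and a median of 0.30, and the 8 cohesin genes detected on all 6 arrays held 4 of the higher calls and not the lower. The background for these counts is the 30.6% of all genes called lower and 30.7% called higher. The cohesin genes called higher, named after their values were seen, were Smc3, Stag1, Stag2, Wapl and Nipbl, with log2 changes of 0.50, 0.61, 0.33, 0.37 and 0.35. Esco2, the acetyltransferase that locks cohesin on during S phase, was the cohesin gene called lower, undetected with RI-BPI and at least 1.04-fold lower. In condensin II, Ncapd3 was lower (-0.37) while Ncapg2 (0.48) and Ncaph2 (0.32) were higher, where the condensin I subunits Ncaph and Ncapd2 had fallen. Whether cohesin and condensin II differed from the mitosis genes was not tested.

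**Figure D3:**
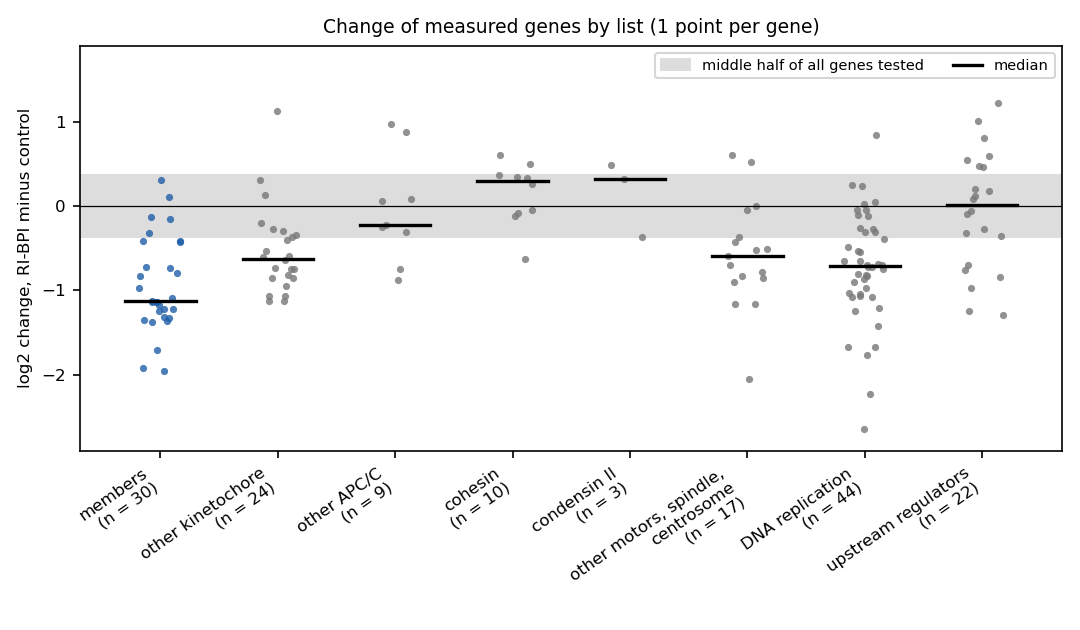
Log2 change (RI-BPI minus control peptide) of each measured gene in the mitosis list and in related lists, 1 point per gene, with a black line at each median and the range between the quartiles of all genes tested in grey. The median is -1.13 for the mitosis list, 0.30 for cohesin and 0.32 for the 3 condensin II genes, and the upstream regulators spread to both sides around 0.01.

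Of 30 upstream regulators of these genes, 29 had a probe and 22 were measured, of which 9 were lower, 7 higher and 6 not called, with a median log2 change of 0.01. These shares lay near those of all genes tested, 30.6% lower and 30.7% higher, and are no result about the list. Of the 17 detected on all 6 arrays, 7 were lower and 5 higher, beside 29.9% lower and 32.6% higher over all genes so detected. The largest decreases were in Cdkn2c, the INK4 inhibitor p18, from 162, 183 and 193 to 78.2, 88.6 and 88.4 (log2 change -1.29 ± 0.13, limma adjusted p = 6.36e-08), and in Rbl1, the pocket protein p107, from 144, 138 and 135 to 81.1, 63.2 and 71.1 (-1.25 ± 0.13, limma adjusted p = 6.38e-08). E2f2, an activating E2F, followed, from 158, 155 and 156 to 84.0, 93.7 and 86.8, with a log2 change of -0.97 ± 0.11 (limma adjusted p = 3.92e-07). Each of these 3 genes had its arrays in separate ranges.

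Activators of mitotic genes were called in both directions, beside 30.6% of all genes tested called lower and 30.7% called higher. Foxm1 was lower, with a log2 change of -0.75. Mybl2, the gene of B-MYB, was undetected with RI-BPI, so that the filter fixed its direction, and was at least 1.24-fold lower. The activating factor E2f1 (-0.84), the E2F partners Tfdp1 (-0.28) and Tfdp2 (-0.35) and the NF-Y subunit Nfya (-0.32) were lower. The activating factor E2f3 and the other NF-Y subunits, Nfyb and Nfyc, were higher, with values given below. Of the DREAM subunits, Lin54, which reads the CHR letters, rose from 264, 328 and 223 to 480.5, 485 and 506, a log2 change of 1.01 ± 0.13 (limma adjusted p = 1.25e-06). Lin37 was undetected with control peptide, so that the filter fixed its direction, and was at least 1.21-fold higher. The DREAM gene Rbbp4 (0.18) and the pocket protein and E2F genes Rb1 (0.12), E2f4 (0.09), E2f5 (0.21) and E2f6 (-0.06) did not pass the test, nor did Pkmyt1 (-0.09), a kinase that inhibits CDK1.

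Cdkn1a, the CDK inhibitor p21, rose most of the upstream list, from 2721, 2809 and 2503 to 6170.0, 5806 and 5903. Its groups were far apart, with a log2 change of 1.21 ± 0.10 (limma adjusted p = 6.87e-09). Myc was undetected with control peptide, so that the filter fixed its direction, and was at least 1.54-fold higher. E2f3 (0.55), Nfyb (0.47) and Nfyc (0.60) were also higher. Lin9, Lin52, Rbl2, E2f7, E2f8, Cdkn1b and Wee1 did not pass the detection filter. The genes of DNA replication, which precede mitosis in the cycle, were lower in 34 of 44 measured and higher in 1, beside 30.6% and 30.7% of all genes tested, with a median log2 change of -0.71. Of the 36 detected on all 6 arrays, 27 were lower, beside 29.9% of all genes so detected. Tk1, thymidine kinase, was undetected with RI-BPI and at least 4.65-fold lower, Uhrf1, which maintains DNA methylation, had a log2 change of -2.22 ± 0.11 and Mcm5, a subunit of the replicative helicase, one of -1.77 ± 0.11. Cdt1, the licensing factor, was the replication gene that rose, by 0.84 ± 0.12.

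Windows of 300 bases, 250 before to 50 after the first listed start, were at hand for 43 of the 50 mitosis genes. TTTGAA occurred on either strand in 31 of the 43 (72.1%), in 11.9% of the 6763 windows of genes tested and in 18.1% of all 27025 windows. CCAAT occurred in 35 of the 43 (81.4%) against 38.9% of the genes tested and 37.9% of all windows. Both were present in 65.1% of the mitosis genes and in 4.95% of the genes tested. The E2F letters GGCGGGAA occurred in 1 of the 43 (2.33%), in 4.29% of the genes tested and in 2.24% of all windows, and in 17.1% of 41 replication genes, of which 14.6% held TTTGAA. None of these motifs contains another, although neighbouring matches may share end bases.

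The letters were found both in mitosis genes called lower and in those not measured. TTTGAA was found in 19 of the 24 windows of genes called lower (79.2%) and in 11 of the 17 windows of genes not measured (64.7%), and all 17 of the latter held CCAAT. Neither motif was found in the windows of Birc5, Mad2l1, Ncaph, Nusap1 and Pttg1. The first 4 of these fell, and Pttg1 was the only measured gene with a window that did not pass the test. Among the other mitosis genes 36.4% of 77 windows held TTTGAA, with 12 of 22 for motors, spindle and centrosome, 12 of 31 for the kinetochore, 1 of 3 for condensin II, 2 of 14 for the other APC/C genes and 1 of 7 for cohesin. No match in a window says only that these letters are not in it.

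**Figure D4:**
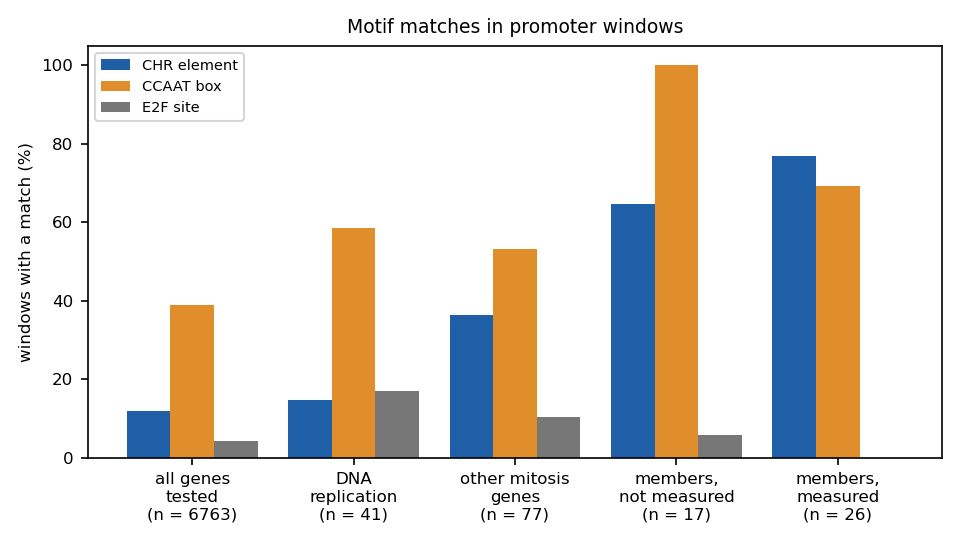
Share of promoter windows (percent, 250 bases before to 50 after the start) that hold the CHR letters, the CCAAT box or the E2F letters, for all genes tested, DNA replication genes, other mitosis genes and the mitosis genes not measured or measured. The CHR bar rises from 11.9% of all genes tested to 76.9% of the measured mitosis genes, and the E2F bar is tallest for DNA replication genes at 17.1%.

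Of the 9 macrophage markers measured, 6 were called lower, 0 higher and 3 were not called, beside 30.6% of all genes tested called lower and 30.7% higher. Of 9 macrophage markers with a probe, 9 were detected on the control arrays and 8 on the RI-BPI arrays. Itgam was undetected with RI-BPI, so that the filter fixed its direction, and was at least 1.62-fold lower. Adgre1, Fcgr1, Mertk, Mrc1 and Msr1 were also lower, with log2 changes of -0.86, -1.73, -0.74, -2.35 and -1.32, while Csf1r (-0.09), Lyz2 (-0.04) and Cd14 (0.09) did not pass the test. The summed intensity of the list lay between 49360 and 54561 on the control arrays and between 42619 and 48172 on the RI-BPI arrays. Of 9 markers of neutrophils and their precursors only S100a8 was detected, higher by 0.36, and the list's sum lay between 732 and 754 on the control arrays and between 803 and 843 on the RI-BPI arrays. No marker of fibroblasts (7 with a probe) or erythroid precursors (4) was detected on any array, and Cd4, of 5 lymphocyte markers, was detected on 1 RI-BPI array. Kit, of 6 markers of mast and progenitor cells, was detected on the 3 RI-BPI arrays alone, so that the filter fixed its direction. It was at least 1.80-fold higher there. Their part in the changes of the mitosis genes was not tested.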

How the data were processed

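RNA of 3 control peptide and 3 RI-BPI arrays was compared. Trizol and a column were used to extract RNA and biotinylated cRNA was hybridised, per the labels' protocols. The submitters' processing notes name GenomeStudio. Per the file headers, the deposited table gives for each probe the mean bead intensity, not normalized, the detection p-value, the bead standard error as a signal, and the bead count (median 45 per probe). A second deposited table holds the authors' normalized intensity values, used as an alternative. The software version and genome build behind the probe annotation were not given in the sources used here, and the number of arrays limits the precision.

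Probes were named from the platform annotation: 34885 of 45281 had 1 symbol, 18 several and 10378 none, and 34807 Entrez IDs were found in RefSeq's GRCm38.p6 table, which changed 0 symbols. Intensities were corrected with normexp (offset 16), quantile normalized and put on the log2 scale with limma 3.58.1 in R 4.3.3. Of these, 13975 probes passed the detection filter, and the brightest probe of each of 8205 genes was fitted (lmFit and eBayes, 2-group design). The script was tested on simulated data. A level is not set against that of another probe.

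The mitosis genes, the related lists and the promoter motifs were chosen with earlier results of these data known. Each mitosis gene is named. Values on every array are given, in each role, for the 2 measured genes with the largest change and the 1 nearest 0, and in the related lists for the 3 largest decreases and increases (by log2 change or bound alone where undetected, and more briefly for replication). Other probes are given where they differ in sign or by 1.5 times. Alternatives were the background correction, the normalization, the detection filter, the probe rule, the array number as a block and leaving out each array.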

Additional observations from a re-analysis of the deposited data

How the results depend on the processing

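Of 433 values of single mitosis genes under the alternatives, 424 kept their direction and their side of the threshold, and 8 kept their direction but no longer passed, 6 of Cdc25b and 2 of Bub3. Pttg1, which was not called, changed sign without control array 2 (0.0073), and leaving out 1 array gave it log2 changes between -0.25 and 0.0073. The number measured differed between settings. The count called lower was 20 of 22 among genes detected on all arrays, where 2169 of 7253 genes were lower. It was 25 of 48 without a detection filter, where 2408 of 19057 were lower. Without a control array it was 22 or 23 of 27, where between 2094 and 2115 of at least 7938 genes were lower. In the other settings it was 25 or 26 of 30, where between 2381 and 2807 of at least 8040 genes were lower. The median log2 change of the measured mitosis genes, -1.13, was -0.79 without background correction, -0.72 with an offset of 50, -0.80 in the deposited normalized table, -0.91 with the mean of a gene's kept probes, -1.21 with each array centred on its median, and -0.41 without a detection filter, which brings in the undetected genes (48 genes in all). Leaving out 1 array gave medians between -1.12 and -1.08. No mitosis gene was called higher by limma with median centring (0 at an unadjusted p under 0.05 too) or without control array 2 (1 at an unadjusted p under 0.05), so that leaving out 1 array gave between 0 and 1. Median centring moved the median of all genes to -0.08, with 2807 lower and 1988 higher calls over all genes. The other mitosis genes gave 17 lower calls in 38 genes detected on all arrays. They gave between 22 and 24 in 51 without a control array and between 34 and 38 in 63 without an RI-BPI array. The fits without a control array on the genes of the full set, chosen after seeing the data, gave 26, 26 and 25 mitosis genes lower. With the array number as a replicate block, 26 of 30 mitosis genes were lower and 1 higher, and no call of a mitosis gene changed. Of 63 other mitosis genes, 38 were then lower and 13 higher, beside 2527 lower and 2533 higher of all 8205 genes. The deviations of arrays of the same number from their group means correlated with r of 0.02, 0.002 and 0.03 over genes. By this measure 4 of 6 arrays correlated best with their own number. Because deviations cancel within a group, these values do not decide whether arrays of the same number were paired. Genes undetected in a group have only a bound there.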
